A study of Noccaea caerulescens and Thlaspi montanum with 10 samples.

Results

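The 70 leaf transcripts described here were chosen because their level differed strongly between neighbouring wild plants, and did so in more than 1 kind of plant. They are among 41841 contigs (assembled transcripts) with a count, 0 included, in all 6 libraries of field leaves of the genus Noccaea, and make up 0.381% of the 18374 contigs that had at least 100 reads over both individuals in every plant. To be chosen, a contig had to differ at least 4-fold between the 2 individuals in 2 or 3 of the 3 plants, on levels in CPM (a contig's reads as a share of the library's reads, scaled per 1000000) to which 0.1 was added. The size of these ratios is therefore the choice itself and is given as description without a test. Which individual was the higher one and the differences between plants did not enter the rule. A plant that did not decide the choice entered it only through the minimum of 100 reads. A wide spread inside plants also widens fitted differences between plants.

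Noccaea caerulescens subsp. firmiensis (firmiensis), labelled a nickel hyperaccumulator, was collected at Puy de Wolf near Firmi on 5 July. N. caerulescens from Viviez (Viviez) and Noccaea montana, from Suc de Clava in Ardeche, were both collected on 5 June of the same year, and both are labelled non-nickel-accumulator. All were wild leaves from serpentine or zinc mining ground, kept in RNAlater, and each of the 6 libraries is the polyA RNA of 1 individual. By the labelled positions the 2 individuals stood 72.4 m apart in firmiensis, 141 m in Viviez and 88.3 m in N. montana. Individual 2 of Viviez carries run label number 4 and the other 5 libraries carry 5, a number whose meaning the labels do not give. Plant age, plant size and hour of collection are not stated either, and with 1 library per individual a difference between plants, between their spots on the site and between library preparations cannot be told apart.

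Wild plants of a population differ in genotype, age, shade, water, insect damage, infection and hour of sampling, and leaf transcripts are known to differ in how strongly they respond to such conditions. Genes of defence, wounding, heat and the daily clock are textbook examples of transcripts with wide swings, and genes of core photosynthesis and translation usually vary less. N. caerulescens is in addition known for metal tolerance and accumulation that vary between populations. The contigs carry numbers and no gene names in the files, so none of the 70 can be placed in any of these classes here, and each is given by its number. The reference was assembled from firmiensis, and reads shared between near-identical contigs cannot be resolved. In bulk leaves, fewer cells of a type and less RNA per cell also cannot be told apart.

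The libraries held between 59476715 and 68439128 reads. Individuals of a plant were alike for most contigs: for the median contig of the 18374 the fold was 1.28 between the firmiensis plants, 1.16 between those of Viviez and 1.23 between those of N. montana. Differences of at least 4-fold were found for 422 contigs of firmiensis (2.3%), 169 of Viviez (0.92%) and 308 of N. montana (1.68%). Of the 18374, 750 contigs passed 4-fold in 1 plant, 61 in 2 plants and 9 in all 3, and the contigs of the last 2 classes are the 70 described here.

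Of the 70 contigs, 57 passed 4-fold in firmiensis, where 18 were higher in individual 1 (0.816% of the 18374 were) and 39 in individual 2 (1.48%). In Viviez 46 passed, 18 higher in individual 1 (0.571%) and 28 in individual 2 (0.348%). In N. montana 46 passed as well, 30 higher in individual 1 (1.01%) and 16 in individual 2 (0.664%). These counts were fixed in part by the choice, and nothing is read from their excess over the background. Firmiensis and Viviez alone accounted for 24, firmiensis and N. montana alone for 24, and Viviez and N. montana alone for 13. Among those past 4-fold the median fold was 6.12, 6.85 and 5.65 in firmiensis, Viviez and N. montana, and 17, 18 and 13 of the 70 contigs passed 8-fold in the same order. The 70 contigs took 0.274% of the reads of firmiensis individual 1 (Wilson 95% interval 0.273 to 0.276) and 0.552% of individual 2 (0.55 to 0.554). In Viviez they took 0.164% (0.163 to 0.165) in individual 1 and 0.391% (0.39 to 0.393) in individual 2. In N. montana they took 0.704% (0.702 to 0.706) and 0.513% (0.511 to 0.514). These intervals cover counting error alone, and reads may not be independent molecules.

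By mean level the contigs were not restricted to low levels, but only 32 of the 70 reached 1 CPM in every library. Their mean CPM over the 6 libraries ranged from 1.32 to 901 with a median of 12.6, against a median of 19.2 over the 18374. A mean can come from a plant that did not pass. The highest, of Ncfi_contig_9249, came from N. montana, where the individuals differed 2.04-fold. Of the 1844 contigs with a mean of 100 CPM or more, 10 were among the 70 (0.542%), as were 19 of the 3209 below 5 CPM (0.592%), 24 of the 6195 from 5 to 20 CPM (0.387%) and 17 of the 7126 from 20 to 100 CPM (0.239%). The lower exact 95% bound of the read ratio itself reached 4-fold in at least 2 plants for 55 of the 70.

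**Figure D1:**
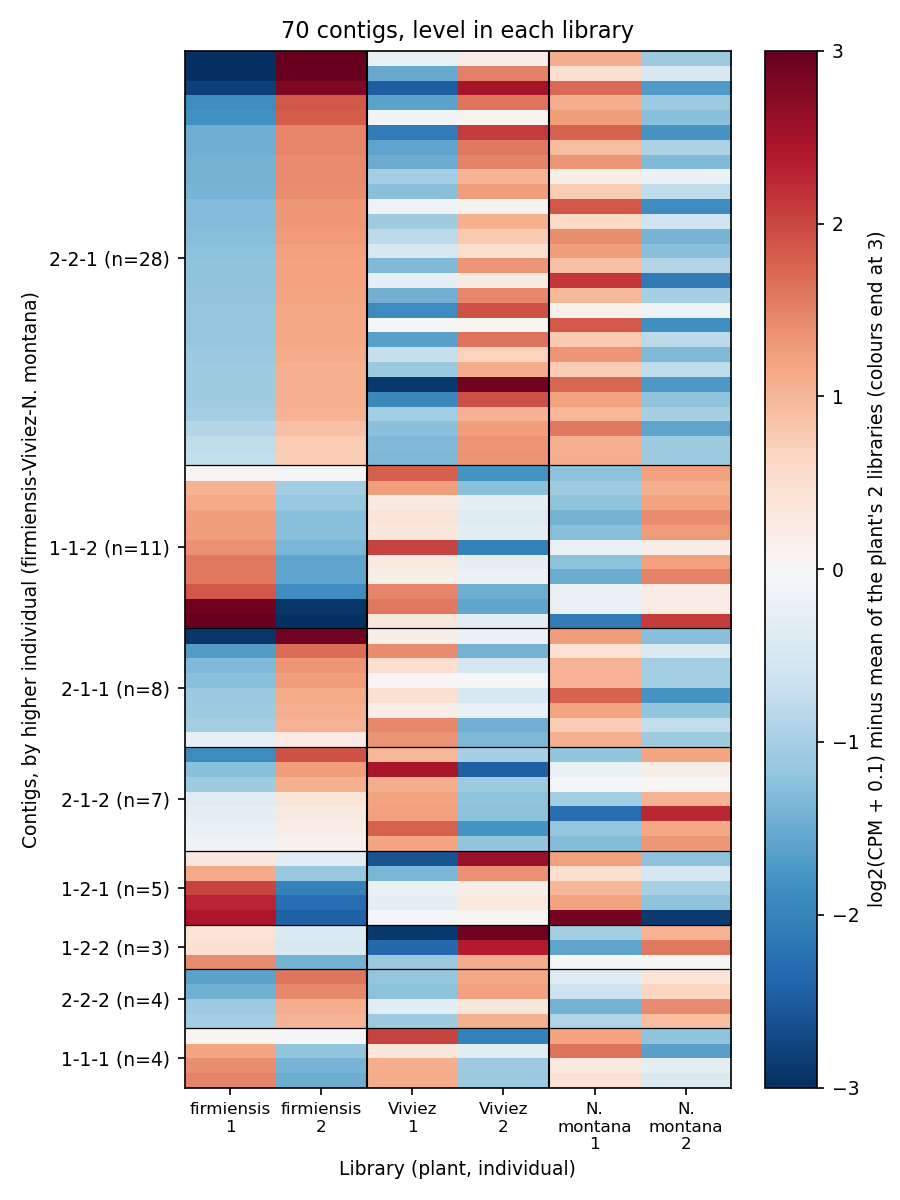
Level of the 70 contigs (rows) in the 6 libraries (columns), as log2(CPM + 0.1) minus the mean of the plant's 2 libraries, with colours ending at 3. Rows are grouped by the individual that was higher in firmiensis, Viviez and N. montana in turn, so that 2-2-1 means individual 2, individual 2 and individual 1; the largest block, 28 contigs, is 2-2-1, and the 11 contigs of 1-1-2 are its mirror image.

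The individual with the higher level was often the same one from contig to contig. The replicate numbers have no meaning across plants, so 8 combinations of higher individual are possible, and each combination has a mirror image in which every plant is turned round. In all, 28 of the 70 contigs (40%) were higher in individual 2 of firmiensis, individual 2 of Viviez and individual 1 of N. montana, and 11 (15.7%) showed the mirror image. These 2 combinations held 55.7% of the 70, against 28.3% of the 18374 contigs with enough reads. The other 6 combinations held between 3 and 8 of the 70 contigs each. This grouping was made after the values had been seen and is a description without a test. With TMM scaling of the libraries, which moves the median log2 ratio of individual 1 over 2 in firmiensis by 0.18, these combinations held 40 of the 70 (57.1%) and 28.7% of the 18374.

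The 28 contigs share their direction by the grouping, and their folds varied widely, from 2.74 to 160 in firmiensis (median 5.43), from 1.1 to 55.7 in Viviez (median 6) and from 1.23 to 18.7 in N. montana (median 4.52). Together they took 0.056% of the reads of firmiensis individual 1 and 0.326% of individual 2, 0.0446% of Viviez individual 1 and 0.236% of individual 2, and 0.204% of N. montana individual 1 and 0.0492% of individual 2. One library of each plant thus stood higher for this group and one lower, which the choice by fold and the grouping by direction fix within each plant. Across plants the high shares lay above the low ones, which describes contigs chosen on these same values and is no separate result. Of the 197313 reads on the group in firmiensis individual 2, Ncfi_contig_14458 held 34318, Ncfi_contig_20579 33128, Ncfi_contig_19406 27034 and Ncfi_contig_12351 23032. The summed reads, in which abundant contigs weigh most, differed 5.82-fold, 5.3-fold and 4.14-fold between individuals of firmiensis, Viviez and N. montana. At least 2-fold differences were shown by all 28 in firmiensis, by 22 in Viviez and by 25 in N. montana, and 19 did so in all 3 plants.

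The 11 contigs of the mirror image were rarer in reads and less even. Their share of the reads of individuals 1 and 2 was 0.0274% and 0.00473% for firmiensis, 0.0111% and 0.00509% for Viviez, and 0.00837% and 0.0193% for N. montana. The individuals were at least 2-fold apart for 10 of the 11 in firmiensis, for 5 in Viviez and for 8 in N. montana, and for 1 contig in all 3 plants. The median fold of the 11 was 6.59, 1.71 and 5.52 in the same order. The 31 contigs of the remaining combinations differed less in sum, at 0.191% and 0.222% for firmiensis, 0.108% and 0.15% for Viviez, and 0.492% and 0.444% for N. montana. They mix directions, so their differences partly cancel in the sum, which is no measure of how much each contig differed. Ncfi_contig_9249 alone held 244312 of their 336830 reads in N. montana individual 1 and 119590 of 303886 in individual 2.

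**Figure D2:**
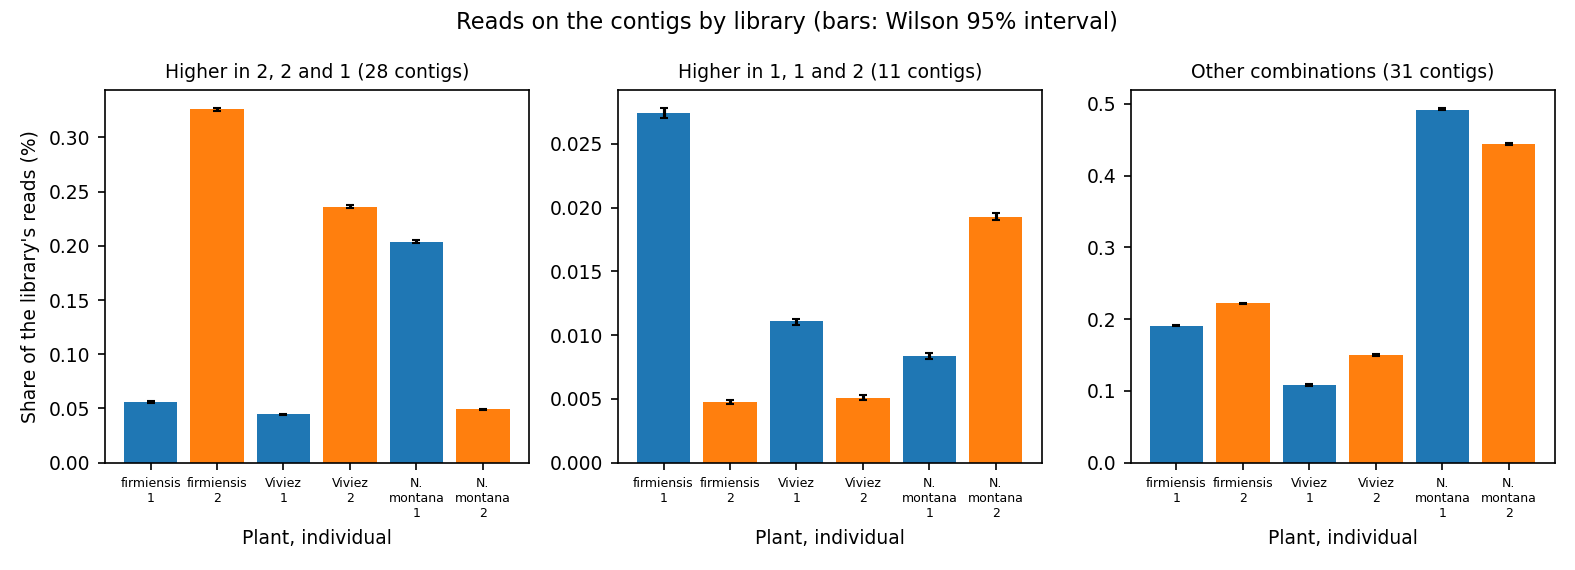
Share of each library's reads (vertical axis, %, from 0, with a different scale in each panel) taken by the 28 contigs higher in firmiensis 2, Viviez 2 and N. montana 1, the 11 contigs of the mirror image and the 31 others; error bars are Wilson 95% intervals for counting error. The 28 contigs lie between 0.204% and 0.326% in 3 libraries and between 0.0446% and 0.056% in the others.

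The same preferred direction was seen in contigs that did not meet the rule. Of the contigs among the 18374 that differed at least 2-fold in all 3 plants, 84 were not among the 70, and 45 of these (53.6%) showed 1 of the 2 mirrored combinations, 25 the first and 20 the second. They come from the same 6 libraries and are not independent evidence. With TMM scaling 40 of 76 did so (52.6%). The share over all 18374 contigs was 28.3%.

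Directions were also counted by pairs of plants, beside the share over all 18374 contigs. Of the 33 contigs past 4-fold in both firmiensis and Viviez, 20 were higher in individual 2 of both and 6 in individual 1 of both, and 7 were crossed. Over the 18374, 48.9% had the same number in both plants and 51.1% were crossed. Of the 33 past 4-fold in both firmiensis and N. montana, 20 were higher in firmiensis individual 2 and N. montana individual 1 and 7 were the reverse, with 6 of the same number, and 53.8% of the 18374 were crossed. Of the 22 past 4-fold in both Viviez and N. montana, 11 were higher in Viviez individual 2 and N. montana individual 1 and 7 were the reverse, with 4 of the same number, and 53.9% of the 18374 were crossed. The 33 contigs shared by firmiensis and Viviez made up 7.82% of the list of firmiensis and 19.5% of that of Viviez. Those shared by firmiensis and N. montana were 7.82% and 10.7% of their lists, and those shared by Viviez and N. montana 13% and 7.14%.

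**Figure D3:**
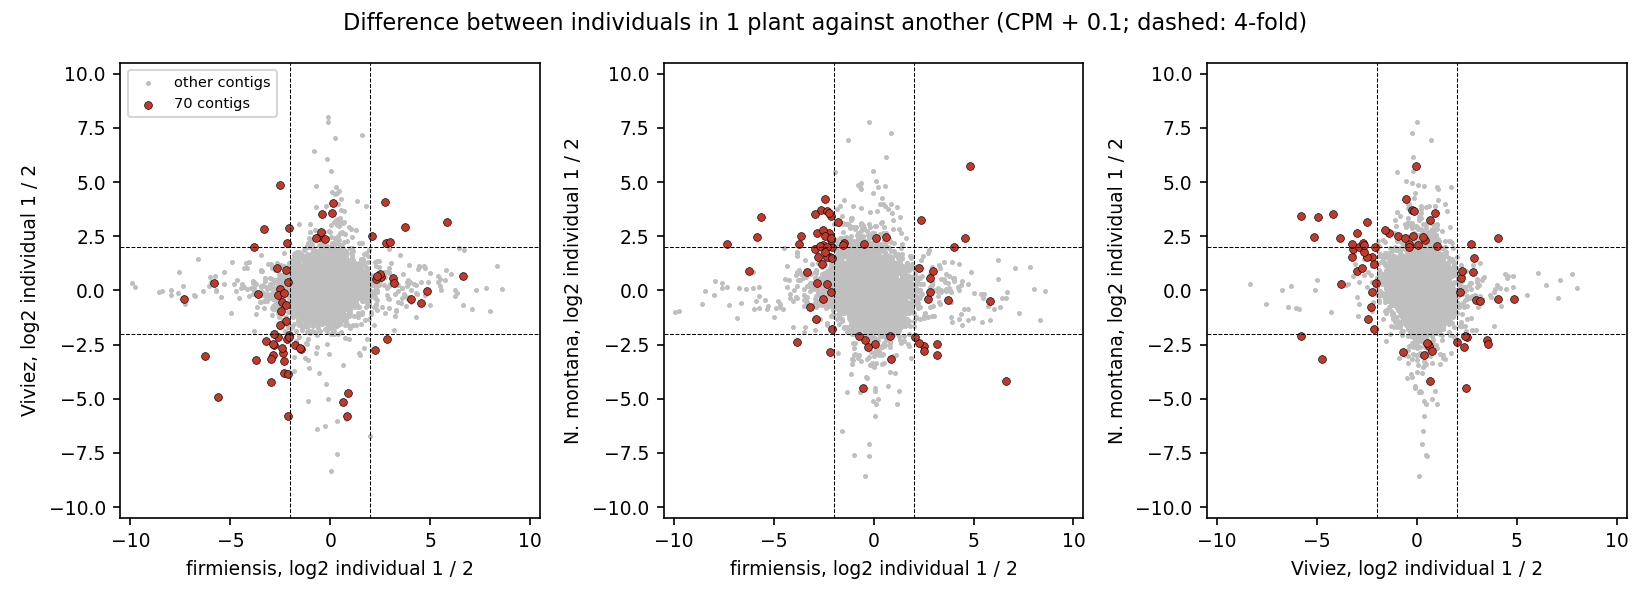
Log2 ratio of individual 1 over individual 2 (CPM + 0.1) in 1 plant against another for 18374 contigs (grey) and the 70 contigs (red), with dashed lines at 4-fold. In the left panel 20 contigs lie past both lines at the lower left and 6 at the upper right; in the middle panel 20 lie at the upper left and 7 at the lower right; in the right panel 11 and 7 do so.

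A contig chosen by 2 plants was also often variable in the remaining plant, whose libraries had no part in that choice. Of the 33 contigs past 4-fold in firmiensis and Viviez, 9 (27.3%) passed 4-fold in N. montana, against 1.68% of all 18374, and their median fold there was 2.8 against 1.23. Of the 33 chosen by firmiensis and N. montana, 9 (27.3%) passed in Viviez, against 0.92%, with a median of 1.59 against 1.16. Of the 22 chosen by Viviez and N. montana, 9 (40.9%) passed in firmiensis, against 2.3%, with a median of 2.82 against 1.28. It is the same 9 contigs in each case, since a contig past in all plants counts each time. The direction followed in some cases and not in others. Of the 20 contigs higher in individual 2 of firmiensis and of Viviez, 17 were higher in individual 1 of N. montana and 3 in individual 2. Over all of the 18374 that were higher in individual 2 of both, 2932 were higher in individual 1 of N. montana and 2525 in individual 2. Of the 6 contigs higher in individual 1 of both, 4 were higher in individual 2 of N. montana and 2 in individual 1. Another 7 contigs were higher in individual 1 of Viviez and individual 2 of N. montana. Of these, 5 were higher in individual 2 of firmiensis, against the mirror image, and 2 in individual 1.

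A set of 9 contigs passed 4-fold in all 3 plants, and 8 of them (88.9%) showed the mirrored combinations. The share was 28.3% over the 18374 and 59.1% over the 110 of these that differed at least 2-fold in all 3 plants. Ncfi_contig_12351, Ncfi_contig_38549 and Ncfi_contig_23979, among the 8, belong to the same group of linked parallel contigs described below, so the 8 may be fewer genes. Ncfi_contig_37368 and Ncfi_contig_6999 had the largest folds in the plant where each differed least. Ncfi_contig_37368 stood at 0.37 and 22.8 CPM in individuals 1 and 2 of firmiensis, 0 and 2.95 CPM in Viviez, and 4.85 and 0.365 CPM in N. montana. Both N. caerulescens plants were thus high in individual 2 and N. montana in individual 1. Its folds on the CPM + 0.1 scale were 48.8, 30.5 and 10.6. Viviez individual 1 had no read of it, so the difference there was at least 62-fold if 3 reads are taken as that library's limit, and the two-sided exact 95% interval of the read ratio starts at 49.9.

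Ncfi_contig_6999 stood at 1.06 and 8.83 CPM in firmiensis, 0.0952 and 3.5 CPM in Viviez, and 12.2 and 0.95 CPM in N. montana. The high libraries were the same as for Ncfi_contig_37368, and the folds were 7.7, 18.5 and 11.7. Its low Viviez value rests on 6 reads, with an exact 95% interval of the read ratio of 16.6 to 101. Ncfi_contig_12351, singled out after its values were seen, is an abundant contig of the same kind and stood at nearly the same pair of levels in every plant. It was at 52.9 and 380 CPM in firmiensis, 46.6 and 370 CPM in Viviez, and 328 and 51.6 CPM in N. montana. The 3 low libraries lay between 46.6 and 52.9 CPM and the 3 high ones between 328 and 380 CPM, so that plants of different species resembled each other more than individuals of the same site did. Its folds were 7.18, 7.92 and 6.35.

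The others past 4-fold in all 3 plants were Ncfi_contig_38549, Ncfi_contig_8734, Ncfi_contig_7199, Ncfi_contig_23979, Ncfi_contig_5361 and Ncfi_contig_23430. Their smallest folds lay between 4.03 and 4.46. Ncfi_contig_5361 was the mirror image, and Ncfi_contig_23430 was the exception, higher in individual 2 of firmiensis and N. montana and in individual 1 of Viviez.

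Abundant contigs were among the 70 too, and 3 were picked after their values were seen. Ncfi_contig_20579 stood at 78.7 and 547 CPM in firmiensis, 87.9 and 500 CPM in Viviez, and 138 and 47.2 CPM in N. montana. Ncfi_contig_14458 stood at 73.6 and 567 CPM, 23.5 and 212 CPM, and 305 and 81.5 CPM in the same order. Both were high in the same individuals as Ncfi_contig_12351. Ncfi_contig_39187, outside the 28, stood at 53.9 and 225 CPM in firmiensis, 241 and 1060 CPM in Viviez, and 312 and 1077 CPM in N. montana. It was higher in individual 2 of every plant, by 4.16-fold, 4.4-fold and 3.45-fold.

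**Figure D4:**
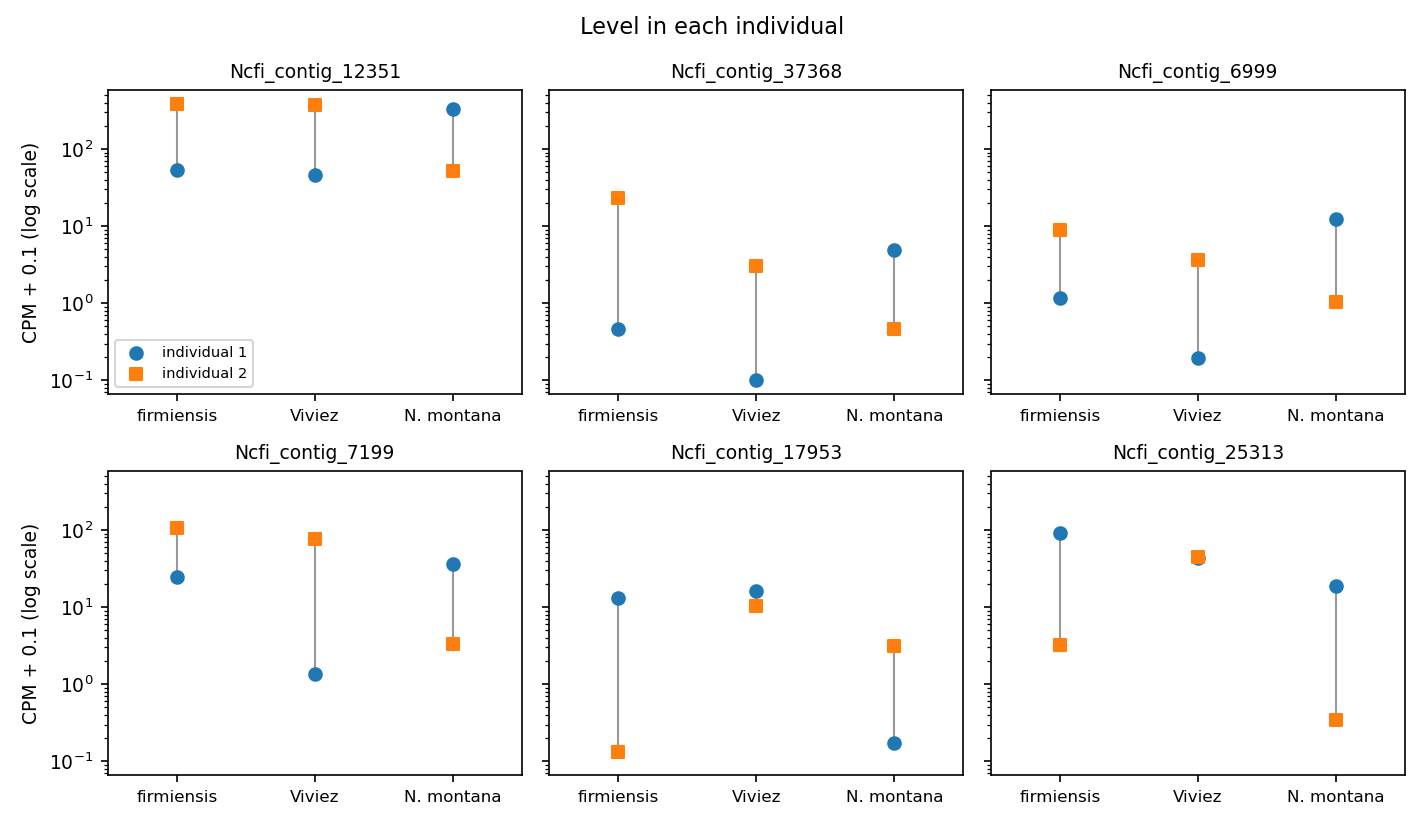
CPM + 0.1 (log scale) of 6 contigs in each of the 6 individuals, with a line joining the individuals of a plant. Ncfi_contig_12351 shows a like low and high level in every plant, Ncfi_contig_37368, Ncfi_contig_6999 and Ncfi_contig_7199 are also past 4-fold in all 3 plants, and Ncfi_contig_17953 and Ncfi_contig_25313 differ least in Viviez, at 1.6-fold and 1.03-fold.

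In firmiensis, the contigs with the largest ratio in favour of individual 2 stood above 30 CPM in that individual and below 1 CPM in the other. Ncfi_contig_20190 stood at 0.185 and 45.5 CPM in individuals 1 and 2 of firmiensis, 1.33 and 1.81 CPM in Viviez, and 1.33 and 0.219 CPM in N. montana. It was high in 1 library alone, firmiensis individual 2, 160-fold above individual 1. Ncfi_contig_21077 stood at 0.303 and 30.5 CPM in firmiensis, 19.9 and 161 CPM in Viviez, and 6.93 and 3.67 CPM in N. montana. It was 75.9-fold higher in individual 2 in firmiensis and 8.05-fold in Viviez, and N. montana differed 1.86-fold in the other direction.

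In the opposite direction, Ncfi_contig_17953 stood at 13.2 and 0.033 CPM in firmiensis, 16.3 and 10.2 CPM in Viviez, and 0.0731 and 3.08 CPM in N. montana. A library of firmiensis and a library of N. montana were thus almost without it, with 2 and 5 reads. The read ratio was 401 in firmiensis (exact 95% interval 111 to 3319) and 42.2 in N. montana (17.8 to 131). Ncfi_contig_21946 stood at 6.51 and 0.0165 CPM in firmiensis, 1.55 and 0.0838 CPM in Viviez, and 1.23 and 1.74 CPM in N. montana. The firmiensis individual 2 value is 1 read, and the read ratio of 394 has an interval of 70.3 to 15608.

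In Viviez, 3 of the 70 contigs had no read in 1 of the individuals, and no contig did so in the other plants. Ncfi_contig_24778 stood at 5.26 and 2.91 CPM in firmiensis, 0 and 5.5 CPM in Viviez, and 1.56 and 6.94 CPM in N. montana. Viviez individual 1 was the library without it, at least 115-fold below individual 2 by the same limit of 3 reads, with an exact 95% interval from 93.4. Ncfi_contig_21198 stood at 1.7 and 10.2 CPM in firmiensis, 2.86 and 0 CPM in Viviez, and 3.26 and 4.3 CPM in N. montana. Here individual 2 of Viviez was without a read, at least 56.8-fold below individual 1 by that limit, with an exact 95% interval from 45.7.

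Ncfi_contig_7199 stood at 24.3 and 107 CPM in firmiensis, 1.27 and 76.1 CPM in Viviez, and 36.5 and 3.27 CPM in N. montana. It followed the pattern of the 28 contigs, with folds of 4.38, 55.7 and 10.8. Ncfi_contig_32501 stood at 5.13 and 0.693 CPM in firmiensis, 2.14 and 0.0335 CPM in Viviez, and 45.6 and 60.8 CPM in N. montana. It was low in individual 2 of both N. caerulescens plants, and its read ratio in Viviez, on 135 and 2 reads, was 63.9 with an interval of 17.4 to 533. The individuals of Viviez also differ in run label number, and its part in these differences was not tested.

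In N. montana, Ncfi_contig_25313 stood at 18.6 and 0.249 CPM in individuals 1 and 2, with 91.8 and 3.1 CPM in firmiensis and 43 and 44.5 CPM in Viviez. It differed 53.5-fold in N. montana and 28.7-fold in firmiensis and was alike in the Viviez individuals. Ncfi_contig_15192 stood at 31.9 and 1.61 CPM in N. montana, 0.706 and 4.26 CPM in firmiensis, and 10.4 and 15.1 CPM in Viviez. It was 18.7-fold higher in individual 1 of N. montana and 5.41-fold higher in individual 2 of firmiensis. Ncfi_contig_23923 stood at 0.102 and 4.5 CPM in N. montana, 2.03 and 3.02 CPM in firmiensis, and 1.65 and 0.218 CPM in Viviez. It was 22.8-fold higher in individual 2 of N. montana, where the low value rests on 7 reads, and 5.51-fold higher in individual 1 of Viviez.

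At the limit of the rule, Ncfi_contig_29698 was just inside with a second-largest fold of 4.023 and Ncfi_contig_7760 with 4.057. Just outside, Ncfi_contig_22666 had 3.975 and Ncfi_contig_31700 had 3.952. Ncfi_contig_7760 stood at 2.05 and 15.3 CPM in firmiensis, 2.82 and 11.8 CPM in Viviez, and 7.42 and 5.83 CPM in N. montana. Ncfi_contig_22666 stood at 5.01 and 40 CPM in firmiensis, 11.3 and 14.2 CPM in Viviez, and 11.3 and 2.76 CPM in N. montana. Ncfi_contig_31700 stood at 58.6 and 14.7 CPM, 0.0634 and 17.4 CPM, and 3.42 and 3.32 CPM.

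Some of the 70 contigs ran closely parallel, and whether they share reads or a gene was not tested, since the contigs' sequences were not used here. Of 2415 pairs, 11 kept their ratio within a span of 1 log2 unit over all 6 libraries, a limit chosen after the values were seen. These pairs linked 18 contigs into 7 groups by chaining, so some contigs of a group exceeded the limit with each other. The largest group held Ncfi_contig_12351 with Ncfi_contig_38549, Ncfi_contig_23979 and Ncfi_contig_25318. Among the groups made of a single pair, the closest was Ncfi_contig_25049 and Ncfi_contig_24917, whose ratio spanned 0.54 log2 units. Counts of contigs, those by direction included, may therefore exceed counts of genes.

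The study set the plants against each other, as a nickel hyperaccumulator and its relatives, and the 70 contigs were read in these comparisons. Each plant came from 1 site, and all reads were counted on contigs of firmiensis. Plant, site and fit of the reads to this reference therefore cannot be told apart. For firmiensis against the others, neither can the month of collection, July against June. The rule chose contigs with a wide spread inside plants, and that spread is the error of the edgeR test, so a low number of calls is no result about the 70. Firmiensis differed from Viviez in 2 of the 70 contigs (2.86%), where 14.2% of all 32989 contigs tested did. It differed from N. montana in 7 of the 70 (10%), where 30.9% did, and Viviez from N. montana in 7 (10%), where 36.6% did (edgeR's quasi-likelihood test on counts, Benjamini-Hochberg adjusted p under 0.05). In total, 10 of the 70 (14.3%) differed in at least 1 comparison, against 48.2% of all tested. The median SE of the log2 difference was 1.17, 1.24 and 1.2 for the 70 contigs and 0.3 in each comparison for the 18374.

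All 70 passed the filter on low counts and were tested. As a description without a test, the fitted differences between plants had a larger median size for the 70 than for the 18374. A wide spread inside plants, by which the 70 were chosen, also widens such differences. The larger size is therefore no result about the 70. The median absolute log2 difference was 1.19 for firmiensis against Viviez, 1.61 for firmiensis against N. montana and 1.57 for Viviez against N. montana, against 0.47, 0.63 and 0.68 over the 18374. At least 4-fold differences between plants were fitted for 27.1%, 42.9% and 30% of the 70, against 5.02%, 10.6% and 13.1%. With their sign, the medians were 0.7, 0.94 and 0.23 in the same order for the 70 contigs and -0.04, 0.04 and 0.07 for the 18374.

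**Figure D5:**
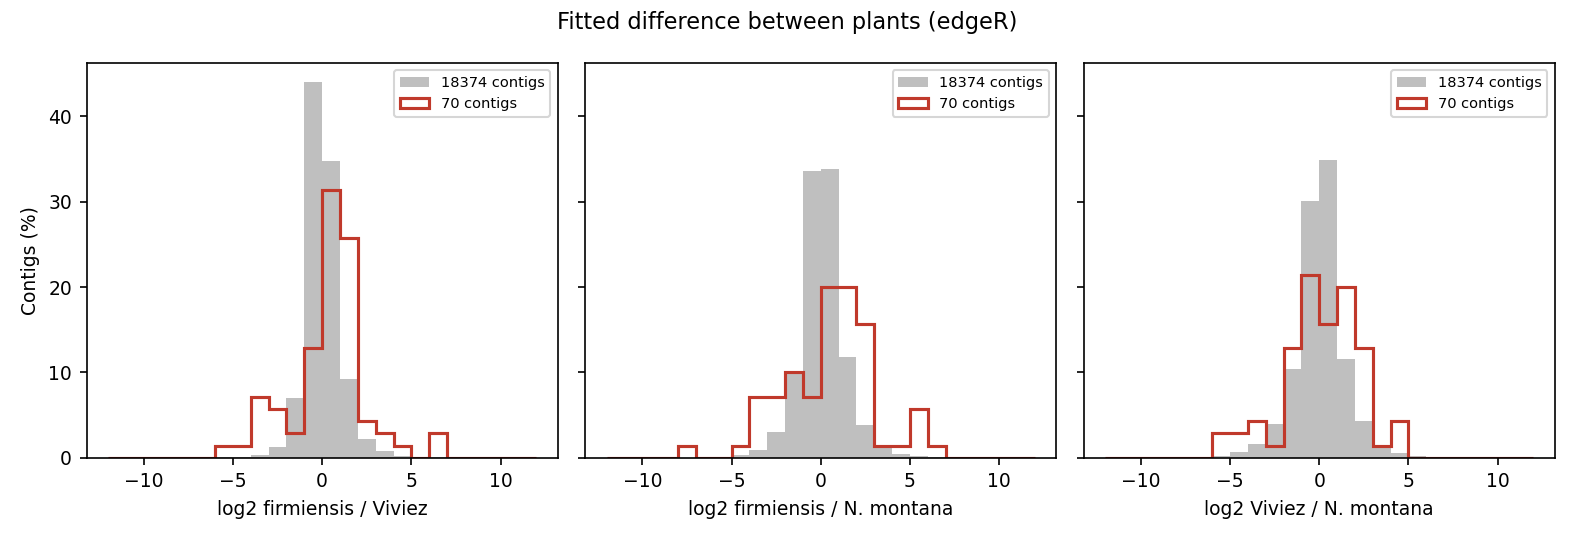
Distribution of the fitted log2 difference between plants (edgeR) in bins of 1 for the 18374 contigs with enough reads (grey) and the 70 contigs (red), as a percentage of each set. The red outline is wider in every panel, with median absolute differences of 1.19, 1.61 and 1.57 against 0.47, 0.63 and 0.68. The choice by spread inside plants also widens this outline.

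Of the 2 contigs that differed between firmiensis and Viviez, both were higher in firmiensis (background 9.5% higher and 4.69% lower). Ncfi_contig_8799, of high level, stood at 905 and 1496 CPM in firmiensis, 98.8 and 18.4 CPM in Viviez, and 225 and 959 CPM in N. montana. The firmiensis and N. montana individuals all lay above both of Viviez, and the firmiensis and N. montana ranges overlapped. Its log2 difference was 4.41 ± 1.02 (SE, edgeR adjusted p = 0.0403). Ncfi_contig_29698 stood at 333 and 20 CPM in firmiensis, 1.7 and 2.25 CPM in Viviez, and 3.48 and 0.789 CPM in N. montana. Firmiensis lay above all others, individual 1 far above individual 2, and the log2 difference from Viviez was 6.61 ± 1.57 (SE, edgeR adjusted p = 0.0428). None of the 70 was lower by this test, 6 had an unadjusted edgeR p under 0.05 in that direction, and DESeq2 called 6. Both calls were lost without firmiensis replicate 1, without either Viviez library and with a replicate block. That of Ncfi_contig_8799 was also lost without firmiensis replicate 2, and that of Ncfi_contig_29698 without either N. montana library. Over all alternatives the edgeR or DESeq2 adjusted p ranged from 3.07e-06 to 0.148 for Ncfi_contig_8799 and from 0.000168 to 0.203 for Ncfi_contig_29698. With 1 library left out the log2 difference lay between 3.66 and 6.01 for Ncfi_contig_8799, and between 3.29, without firmiensis replicate 1, and 7.53 for Ncfi_contig_29698.

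Firmiensis was higher than N. montana in 4 of the 70 contigs and lower in 3 (background 15.8% and 15.1%). Ncfi_contig_9249, the contig of highest mean level among the 70, stood at 16.3 and 3.33 CPM in firmiensis, 9.12 and 61.3 CPM in Viviez, and 3570 and 1748 CPM in N. montana. N. montana lay above both other plants by more than the individuals of any plant differed. Its log2 difference between firmiensis and N. montana was -7.73 ± 1.44 (SE, edgeR adjusted p = 0.0129), and it was the one call of all 16 in the 3 comparisons that held in each of the 6 fits with 1 library left out, at -9.44 to -6.94. Its edgeR or DESeq2 adjusted p over 11 alternatives ranged from 1.8e-13 to 0.041.

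Ranges of adjusted p given from here on cover edgeR and DESeq2 fits, and the lowest value of each range is from DESeq2. Ncfi_contig_24917 stood at 97.2 and 13.9 CPM in firmiensis, 52.3 and 11.3 CPM in Viviez, and 1.8 and 1.18 CPM in N. montana. Both N. caerulescens plants lay above N. montana, and the log2 difference of firmiensis was 5.58 ± 1.24 (SE, edgeR adjusted p = 0.0212, from 9.27e-08 to 0.0994 over the alternatives). Ncfi_contig_29698 was higher by 6.73 ± 1.57 (SE, edgeR adjusted p = 0.0243, from 6.66e-05 to 0.0972). Ncfi_contig_5385 stood at 0.303 and 1.68 CPM in firmiensis, 11.8 and 2.51 CPM in Viviez, and 13.8 and 14.4 CPM in N. montana. It was nearly equal in the N. montana individuals, and its log2 difference was -3.58 ± 0.96 (SE, edgeR adjusted p = 0.036, from 0.000279 to 0.103). These 3 calls were lost without firmiensis replicate 1 and without either N. montana library, and that of Ncfi_contig_5385 also with a replicate block. Without firmiensis replicate 1 the log2 differences of Ncfi_contig_24917 and Ncfi_contig_29698 fell to 3.42.

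The remaining calls were Ncfi_contig_25049 at 5.27 (edgeR adjusted p = 0.0272), Ncfi_contig_20489 at 5.69 (edgeR adjusted p = 0.0348) and Ncfi_contig_23886 at -4.07 (edgeR adjusted p = 0.0471), all on the log2 scale. The calls of Ncfi_contig_25049 and Ncfi_contig_23886 were lost without the same 3 libraries, and that of Ncfi_contig_20489 also without firmiensis replicate 2. Over the alternatives the adjusted p of these contigs reached 0.121, 0.116 and 0.137. With 1 library left out their log2 differences lay between 2.96 and 6.14, 4.91 and 7.56, and -5.99 and -3.27.

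Viviez was higher than N. montana in 2 of the 70 contigs and lower in 5 (background 16.1% and 20.5%). Ncfi_contig_24917 was higher by 4.64 ± 1.19 (SE, edgeR adjusted p = 0.0274, from 1.11e-05 to 0.123 over the alternatives). Its parallel contig, Ncfi_contig_25049, stood at 142 and 18.1 CPM in firmiensis, 81.1 and 17.1 CPM in Viviez, and 3.49 and 1.86 CPM in N. montana. It was higher by 4.42 ± 1.24 (SE, edgeR adjusted p = 0.0356, from 5.89e-05 to 0.148). Ncfi_contig_9249 was lower in Viviez by a log2 difference of -5.97 ± 1.33 (SE, edgeR adjusted p = 0.0177, from 1.62e-08 to 0.0659).

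Ncfi_contig_5361 stood at 4.98 and 1.11 CPM in firmiensis, 1.73 and 0.218 CPM in Viviez, and 13.6 and 60.8 CPM in N. montana. N. montana lay above the others in both individuals, and the log2 difference of Viviez from it was -5.00 ± 1.33 (SE, edgeR adjusted p = 0.0307, from 2.41e-05 to 0.116). The other lower contigs were Ncfi_contig_23886 at -4.03 (edgeR adjusted p = 0.0428), Ncfi_contig_32501 at -5.38 (edgeR adjusted p = 0.0456) and Ncfi_contig_8799 at -3.08 (edgeR adjusted p = 0.0488), whose adjusted p reached 0.149, 0.108 and 0.205 over the alternatives. Each of the 7 calls was lost in at least 2 of the 6 fits with 1 library left out. Those of Ncfi_contig_24917 and Ncfi_contig_25049 fell to 3.21 and 2.96 without Viviez replicate 1. Those of Ncfi_contig_5361 and Ncfi_contig_8799 became -3.59 and -1.73 without N. montana replicate 2, the call of Ncfi_contig_8799 was also lost with a replicate block (edgeR adjusted p = 0.109), and that of Ncfi_contig_32501 became -10.26 without Viviez replicate 1. The comparisons share libraries, so a contig that differs in more than 1 of them does not count as independent evidence.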

How the data were processed

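Per the file headers, each deposited file holds 1 library's unnormalised read counts over the contigs. Per the series' design text, the contigs were assembled from hydroponically grown firmiensis (37.5 µM NiCl2, 20 µM Fe-HBED, 7 weeks), and the 4 hydroponic samples among the series' 10 were not analysed here. Names of assembler, aligner and counter were not given in the sources used here. Libraries were strand-specific, per the labels' protocols. Of 41843 contigs, 2 with empty cells were left out, and 0 columns of other samples were present.

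CPM are counts divided by column totals. The limit of 3 reads per library lies between 0.0438 and 0.0504 CPM. Plants were compared in R 4.3.3 with edgeR 4.0.16 (TMM, filterByExpr with a minimum count of 10, glmQLFit and glmQLFTest, all 6 libraries, 1 coefficient per plant, 3 residual degrees of freedom), on 32989 contigs holding 99.96% of reads. The SE is the log2 difference divided by the square root of F. The common biological coefficient of variation was 39.5%. DESeq2 1.42.0 and other settings were alternatives.

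The 70 contigs and the naming rules were chosen with earlier results of these data known. Contigs were named as the 2 with the largest ratio in each direction and plant, the 2 with the smallest adjusted p in each direction and comparison, the 2 of highest level (Ncfi_contig_9249 and Ncfi_contig_8799), the 2 on each side of the limit, and the 2 with the largest smallest fold in all plants. All other contigs named were chosen after their values were seen. Lists of plant genes could not be matched to numbered contigs, and none was tested. P-values set a difference between plants against the spread between individuals of a plant, pooled over all plants and drawn toward that of other contigs.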

Additional observations from a re-analysis of the deposited data

How the results depend on the processing

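The rule gave 70 contigs. It gave 72 with TMM factors, 66 of them shared, and 81 with a pseudocount of 0.001 CPM. It gave 31 with a pseudocount of 1 CPM, 184 at 3-fold, 9 at 8-fold, 103 with at least 50 reads and 32 with at least 400 reads in each plant. The numbers past 4-fold in firmiensis, Viviez and N. montana fell from 422, 169 and 308 to 262, 85 and 146 with a pseudocount of 1 CPM. The contigs that differed between firmiensis and Viviez numbered 2, with 9 by DESeq2, 1 over contigs with at least 1 CPM in every library and 0 to 2 with a library left out. It was 0 without either Viviez library, where 16 and 12 had an unadjusted edgeR p under 0.05. Between firmiensis and N. montana they numbered 7, with 19 by DESeq2, 4 at 1 CPM or more in every library and 2 to 9 with a library left out (2 without firmiensis replicate 1 or either N. montana library). Between Viviez and N. montana they numbered 7, and 2 to 8 with a library left out: 3 without either Viviez library, 4 without N. montana replicate 1 and 2 without replicate 2. In this last comparison they numbered 10 by DESeq2 and 5 at 1 CPM or more in every library. Contigs called with a library left out were in part others than those called with all libraries. Only 32 of the 70 reached 1 CPM in every library. A plant with a library left out has 1 sample, assumed to vary like the others.

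With the replicate number as a block, 3, 8 and 9 contigs differed in the same order, of which 0, 6 and 6 were among those called without it. The numbers do not pair individuals by label, and same-numbered deviations correlated at 0.0155, -0.0598 and -0.0374 over 32989 contigs. None of the 16 calls on single contigs changed direction under the alternatives run, and 15 were lost in at least 1 fit with a library left out. Leaving out a library could not be applied to the rule itself, which needs both individuals of a plant.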
